A study of Caenorhabditis elegans with 21 samples.

Results

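The kynurenine pathway genes of Caenorhabditis elegans were followed here as a group of 7 genes, of 22037 genes in the count tables, across 7 genotypes of the hypoxia pathway. The members were taken from a written list of the enzymes that break tryptophan down through kynurenine: tdo-2, afmd-1, kmo-1, kynu-1 and haao-1, and the kynurenine aminotransferases nkat-1 and nkat-3. The gene nkat-3 was chosen by its counts, which were almost absent in both genotypes that carry vhl-1(ok161), so its values in comparisons that set that allele against its absence are a description and carry no test. The rule gives no measured value for the other members, but the list was drawn up with earlier results of these data known.

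Whole worms were taken as young adults, before eggs could be seen, and their RNA was sequenced by SmartSeq2, a protocol that keeps no record of the strand. Each sample pooled 30 to 50 picked worms. Single mutants carried the alleles egl-9(sa307), or rhy-1(ok1402), or vhl-1(ok161), or hif-1(ia4), double mutants were egl-9(sa307);vhl-1(ok161) and egl-9(sa307) hif-1(ia4), and all were set against the wild type N2. They are written below without the allele names, and each had 3 libraries, 21 libraries in all.

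The kynurenine pathway is the main route of tryptophan breakdown. TDO-2 opens the tryptophan ring, AFMD-1 removes the formyl group to give kynurenine, KMO-1 hydroxylates kynurenine, KYNU-1 cleaves kynurenine or its hydroxylated form, and HAAO-1 opens the ring of the product on the way to NAD. Kynurenine aminotransferases draw kynurenine off to kynurenic acid, a neuromodulator in worms. In C. elegans the product of KYNU-1 also feeds the synthesis of rhodoquinone, an electron carrier used when oxygen is scarce, and anthranilate made by KYNU-1 gives the gut granules their blue fluorescence. EGL-9 hydroxylates the hypoxia-inducible factor HIF-1 so that VHL-1 can mark it for destruction, and RHY-1 lies upstream of both. The genotypes egl-9, rhy-1, vhl-1 and egl-9;vhl-1 are called HIF-1-raising below.

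The libraries held between 7329864 and 10102598 estimated counts. The labels were checked on the mutated genes: the vhl-1 transcript had 0 counts over all libraries of vhl-1 and of egl-9;vhl-1, against 45 counts in N2, and the hif-1 transcript lay at 13.3 to 21 CPM in hif-1 mutants and at 13.4 to 14.1 CPM in egl-9 hif-1, against 105 to 131 CPM in N2. The egl-9 and rhy-1 transcripts were still present in their own mutants and check nothing there. All 6 listed genes used as a sign of HIF-1 activity were called higher than in N2 in each of egl-9, rhy-1, vhl-1 and egl-9;vhl-1. Of all genes 14.8%, 16.7%, 6.54% and 16.5% were, in that order. The 6 are nhr-57, cysl-2, sqrd-1 and phy-2, and also egl-9 and rhy-1 themselves. In hif-1, egl-9 and rhy-1 were called higher too (0.57 ± 0.10 and 0.69 ± 0.08), and sqrd-1 and cysl-2 were called lower. CPM are counts scaled to library size and by TMM, a correction for differences in composition between libraries. A gene is called changed at an adjusted p below 0.05 in the quasi-likelihood test of edgeR, adjusted by Benjamini-Hochberg over 13043 genes. Changes are log2 fold changes with the standard error of that test. Nothing in the labels ties the 3 libraries of a genotype to separate cultures, so a p-value here reflects the spread among these samples, which may be technical. All comparisons with N2 use the same 3 N2 libraries.

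The filter on low counts was passed by 6 of the 7 genes, and not by nkat-1. In the egl-9 comparison with N2, 2 of 6 tested members were called, both lower, where 25.8% of all tested genes were called, 14.8% higher and 11% lower. In rhy-1, 2 of 6 were called, both lower, against 29.5% of all genes, 16.7% higher and 12.8% lower. In vhl-1, 3 of 5 were called, 1 higher and 2 lower, against 12.5% of all genes, 6.54% higher and 5.95% lower. In egl-9;vhl-1, 3 of 5 were called, all lower, against 34.6% of all genes, 16.5% higher and 18.1% lower. In hif-1, 1 of 6 was called, higher, against 14.4% of all genes, 8.21% higher and 6.14% lower. In egl-9 hif-1, 0 of 6 were called by edgeR, with 0 at an unadjusted p below 0.05 and 0 called by DESeq2, against 6.55% of all genes. With 2 of 6 or 1 of 6 called, the shares of members in egl-9, rhy-1 and hif-1 are near the share of all genes called in either direction. The median change of the tested members was -0.36 in egl-9, -0.25 in rhy-1, -0.59 in vhl-1 and -1.02 in egl-9;vhl-1, beside medians of all genes between -0.00 and 0.02.

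**Figure D1:**
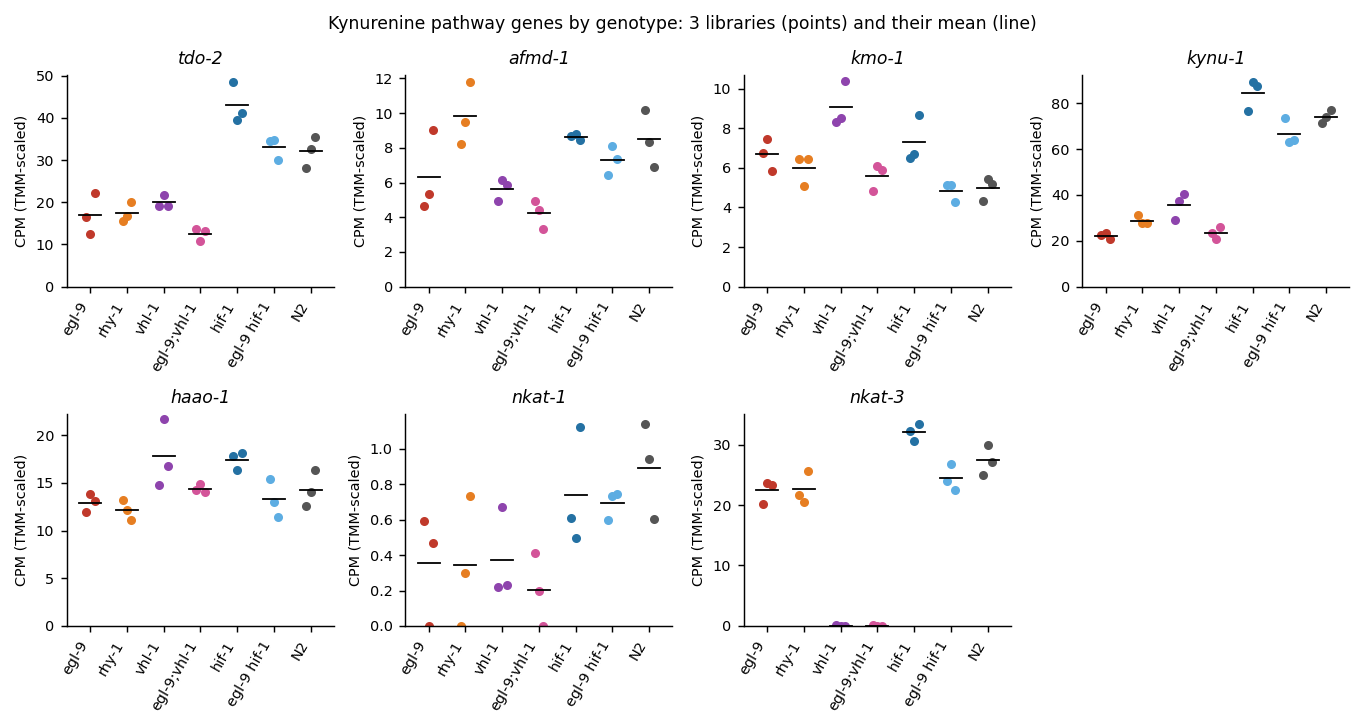
Level of each of the 7 genes in CPM after TMM scaling (vertical axes, each from 0) by genotype (horizontal axes), with 3 libraries as points and their mean as a line. The points of kynu-1 and tdo-2 in egl-9, rhy-1, vhl-1 and egl-9;vhl-1 all lie below those of N2, and nkat-3 lies at or near 0 in vhl-1 and egl-9;vhl-1.

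The gene tdo-2, which encodes the tryptophan dioxygenase that starts the pathway, fell in all 4 HIF-1-raising genotypes. Its locus is on chromosome III at 5917628 to 5919955, minus strand (WBcel235, as all positions here). Its level was 16.4, 12.5 and 22.3 CPM in the egl-9 libraries, 15.5, 16.7 and 20.1 CPM in rhy-1, 19.1, 21.8 and 19.1 CPM in vhl-1 and 13.6, 10.9 and 13.2 CPM in egl-9;vhl-1, against 28.2, 32.7 and 35.5 CPM in N2. Every library of these 4 genotypes lay below every N2 library, and the egl-9 libraries were the most spread. The log2 change was -0.91 ± 0.16 in egl-9 (edgeR adjusted p = 2.92e-04), -0.88 ± 0.16 in rhy-1 (adjusted p = 3.82e-04), -0.68 ± 0.16 in vhl-1 (adjusted p = 0.00759) and -1.35 ± 0.16 in egl-9;vhl-1 (adjusted p = 4.11e-06).

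In the genotypes with mutated hif-1, the level of tdo-2 was 48.4, 39.6 and 41.1 CPM in hif-1 and 34.6, 34.8 and 30.1 CPM in egl-9 hif-1. The hif-1 libraries all lay above N2, while those of egl-9 hif-1 overlapped N2. Neither was called against N2. The change was 0.42 ± 0.15 in hif-1 (edgeR adjusted p = 0.0701) and 0.05 ± 0.15 in egl-9 hif-1 (adjusted p = 0.911). Without egl-9 replicate 2 or replicate 3 in the fit, whose spread enters the shared estimate, the hif-1 change had an adjusted p of 0.0353 and 0.0344. Against egl-9, the egl-9 hif-1 libraries were higher by 0.95 ± 0.16 (adjusted p = 1.89e-04), 1.94-fold.

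The deposited table lists 6 transcripts of tdo-2. The transcript C28H8.11c.1 took 37.3 ± 2.63% of the tdo-2 counts in egl-9, 35.3 ± 4.81% in rhy-1, 30.6 ± 7.04% in vhl-1 and 34.1 ± 6.27% in egl-9;vhl-1, against 37 ± 5.33% in N2 (mean ± SD, n = 3). The transcripts C28H8.11a.1 and C28H8.11a.2 together took 62.7 ± 2.63% in egl-9 and 65.3 ± 5.31% in egl-9;vhl-1, against 63 ± 5.33% in N2. The shares of these genotypes overlapped those of N2, and transcript use was not tested.

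The gene afmd-1, which encodes the arylformamidase that yields kynurenine, changed in 1 of the 6 genotypes. The locus, on chromosome IV at 7244228 to 7245502 on the plus strand, overlaps the annotated span of the collagen gene col-114 on the other strand. Whether their transcripts share sequence was not examined, and reads from shared sequence could not be assigned by strand. The deposited estimated counts of afmd-1 were whole numbers in every library. Its level was given in CPM as for the other members. Its level was 4.63, 5.32 and 9 CPM in egl-9, 8.24, 9.5 and 11.8 CPM in rhy-1, 4.93, 6.16 and 5.87 CPM in vhl-1 and 4.95, 4.41 and 3.33 CPM in egl-9;vhl-1, against 10.2, 8.36 and 6.88 CPM in N2. The vhl-1 and egl-9;vhl-1 libraries lay below all N2 libraries, while egl-9 and rhy-1 overlapped N2. The fall was called in egl-9;vhl-1, at -1.02 ± 0.23 (edgeR adjusted p = 0.00195), 2.02-fold lower. The change was -0.43 ± 0.22 in egl-9 (adjusted p = 0.176), 0.21 ± 0.21 in rhy-1 (adjusted p = 0.511) and -0.59 ± 0.22 in vhl-1 (adjusted p = 0.089). None of these 3 was called. Without egl-9 replicate 3 the change was called in egl-9, at -0.78 (adjusted p = 0.0139), and in vhl-1, at -0.59 (adjusted p = 0.0414). That library is in neither group of the vhl-1 comparison and enters it through the shared estimate of the spread. In hif-1, afmd-1 lay at 8.44 to 8.79 CPM, and in egl-9 hif-1 at 6.46 to 8.08 CPM, and both ranges overlapped N2.

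The gene kmo-1 encodes kynurenine monooxygenase and was higher, not lower, where it was called against N2. Its position is chromosome V, 12068724 to 12070519 on the minus strand, 186 bases from its paralogue kmo-2. Its level was 8.33, 8.51 and 10.4 CPM in vhl-1, against 4.34, 5.41 and 5.19 CPM in N2, with all vhl-1 libraries above all N2 libraries. The rise was 0.86 ± 0.17 (edgeR adjusted p = 0.00188), 1.82-fold. In egl-9 it was at 6.76, 7.44 and 5.85 CPM, also all above N2, with a change of 0.42 ± 0.17 that was not called (adjusted p = 0.0817). Its range overlapped N2 in rhy-1, at 5.1 to 6.46 CPM (0.27 ± 0.17, adjusted p = 0.27), and in egl-9;vhl-1, at 4.81 to 6.11 CPM (0.18 ± 0.17, adjusted p = 0.459).

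In hif-1, kmo-1 was at 6.49, 6.68 and 8.68 CPM, a change of 0.55 ± 0.17 that passed the threshold narrowly (edgeR adjusted p = 0.0398). The call did not hold without single libraries: the adjusted p was 0.153, 0.0729 and 0.0525 without N2 replicates 1, 2 and 3, and 0.0724 and 0.203 without hif-1 replicates 2 and 3. It was also lost without a filter on low counts (0.0739), with DESeq2 (0.079), with only the compared genotypes fitted (0.123) and with egl-9 replicate 1 and rhy-1 replicate 1 both left out (0.0502). In egl-9 hif-1 it was at 4.26 to 5.15 CPM, which overlapped N2.

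The kynureninase gene kynu-1 showed the most strongly lowered level among the members tested in the HIF-1-raising genotypes. Located on chromosome X at 6106927 to 6109338 on the minus strand, it is the most counted member. Its level was 22.5, 23.3 and 21 CPM in egl-9, 31.4, 27.6 and 27.6 CPM in rhy-1, 29, 37.3 and 40.5 CPM in vhl-1 and 23.4, 20.7 and 26 CPM in egl-9;vhl-1, against 71.3, 73.9 and 77.2 CPM in N2. The highest of these 12 mutant libraries, at 40.5 CPM, was far below the lowest N2 library.

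The fall of kynu-1 was -1.73 ± 0.11 in egl-9 (edgeR adjusted p = 9.98e-10), -1.36 ± 0.11 in rhy-1 (adjusted p = 3.41e-08), -1.06 ± 0.11 in vhl-1 (adjusted p = 1.65e-06) and -1.67 ± 0.11 in egl-9;vhl-1 (adjusted p = 1.52e-09). In linear terms kynu-1 was 3.33-fold lower in egl-9, 2.57-fold in rhy-1, 2.08-fold in vhl-1 and 3.17-fold in egl-9;vhl-1. In hif-1 its level was 76.5, 89.1 and 87.5 CPM, a change of 0.19 ± 0.11 (adjusted p = 0.24), and in egl-9 hif-1 it was 73.7, 62.9 and 63.8 CPM, a change of -0.15 ± 0.11 (adjusted p = 0.456). Both ranges overlapped N2. The egl-9 hif-1 libraries were 3-fold higher than those of egl-9, a log2 change of 1.58 ± 0.11 (adjusted p = 3.70e-09), with no overlap. In bulk samples such as these, fewer cells of a type and less RNA per cell cannot be told apart.

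**Figure D2:**
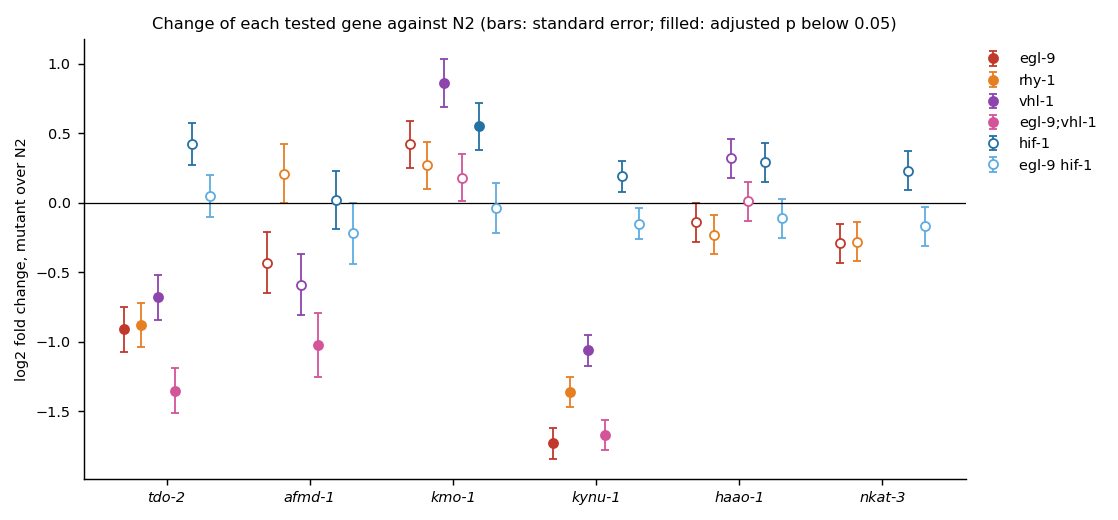
Log2 fold change of each tested gene (horizontal axis) in each mutant over N2 (vertical axis), with bars for the standard error and filled points for an edgeR adjusted p below 0.05. The changes of nkat-3 in vhl-1 and egl-9;vhl-1 are not drawn, because they chose the gene. The filled points of kynu-1 run between -1.73 and -1.06 and those of tdo-2 between -1.35 and -0.68, while haao-1 has no filled point.

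The gene haao-1, which encodes the dioxygenase after KYNU-1, was not called against N2 in any of the 6 genotypes. The gene is on chromosome V at 9504910 to 9507118 on the plus strand. Its level was 11.9, 13.8 and 13.1 CPM in egl-9, 13.2, 12.2 and 11.1 CPM in rhy-1, 14.8, 21.7 and 16.8 CPM in vhl-1 and 14.2, 14.9 and 14 CPM in egl-9;vhl-1, against 12.6, 14 and 16.3 CPM in N2. All 4 ranges overlapped N2. The change was -0.14 ± 0.14 in egl-9 (edgeR adjusted p = 0.508), -0.23 ± 0.14 in rhy-1 (0.253), 0.32 ± 0.14 in vhl-1 (0.152) and 0.01 ± 0.14 in egl-9;vhl-1 (0.973). In hif-1 its libraries held 16.3 to 18.1 CPM (0.29 ± 0.14, adjusted p = 0.168), and in egl-9 hif-1 11.4 to 15.4 CPM (-0.11 ± 0.14, adjusted p = 0.733). The hif-1 libraries all lay above N2, though the nearest libraries of both round to 16.3 CPM, while egl-9 hif-1 overlapped N2.

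Levels of different genes can be set beside each other per transcript length, in the deposited length-scaled abundances (TPM) summed per gene. In N2, kynu-1 at 59.2 ± 0.94 TPM and tdo-2 at 56.2 ± 5.64 TPM stood first, then nkat-3 at 23.7 ± 2.12, haao-1 at 22.4 ± 2.31, afmd-1 at 13.6 ± 3, kmo-1 at 4.23 ± 0.444 and nkat-1 at 0.887 ± 0.287 TPM (mean ± SD, n = 3). Within this order kynu-1 and tdo-2 differed by less than the spread of tdo-2, and nkat-3 and haao-1 by less than the spread of either. Of the 50.8, 62 and 56 TPM of tdo-2 in the N2 libraries, the 660-base transcript C28H8.11c.1 made up 33.53, 43.13 and 33.55 TPM. The place of tdo-2 therefore depends on the estimated split of its counts between transcripts of unlike length. In egl-9 the order was tdo-2 at 29.2 ± 6.91, haao-1 at 19.9 ± 2, nkat-3 at 19 ± 2.03 and kynu-1 at 17.5 ± 1.75 TPM, so kynu-1 was no longer separated from haao-1. In egl-9;vhl-1 haao-1, tdo-2 and kynu-1 lay at 22.4 ± 0.773, 21.7 ± 2.41 and 18.5 ± 2.12 TPM.

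The ratio of kynu-1 to haao-1 in TPM within each library showed this without any scaling between libraries. It was 0.966, 0.855 and 0.817 in egl-9, 1.21, 1.15 and 1.26 in rhy-1, 0.998, 0.873 and 1.23 in vhl-1, 0.839, 0.706 and 0.946 in egl-9;vhl-1, 2.18, 2.77 and 2.45 in hif-1 and 2.43, 2.46 and 2.85 in egl-9 hif-1, against 2.87, 2.68 and 2.41 in N2. The ratios of the 4 HIF-1-raising genotypes all lay below the lowest ratio of the other 3. The ratio of kynu-1 to tdo-2 moved less, with a mean of 0.628 ± 0.198 in egl-9 and 0.854 ± 0.0133 in egl-9;vhl-1, against 1.06 ± 0.0922 in N2. A ratio shows unequal change of its genes and not which of them changed. The ratio with tdo-2 also depends on how the counts of tdo-2 were split between its transcripts.

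**Figure D3:**
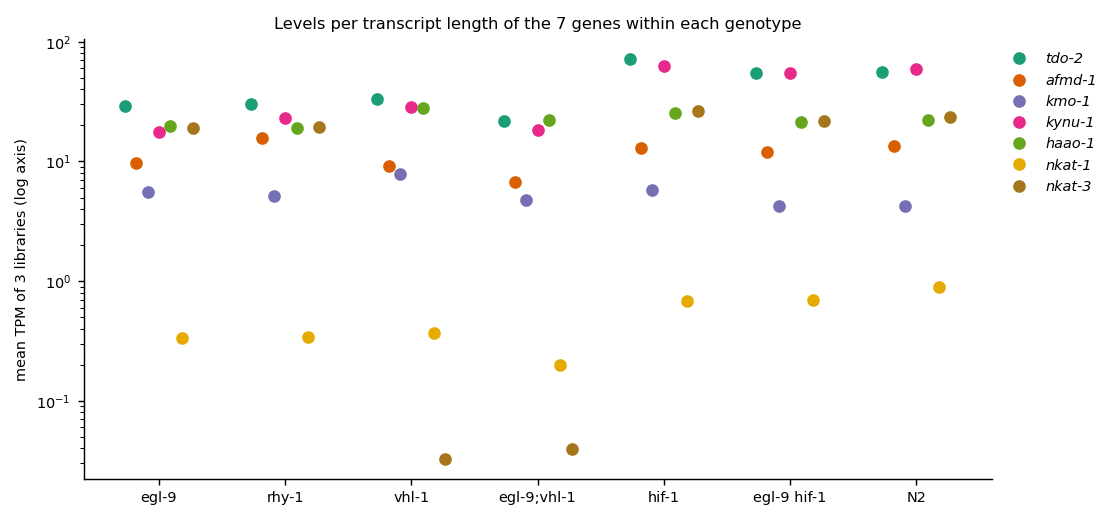
Mean TPM of 3 libraries on a log axis (vertical) for each of the 7 genes in each genotype (horizontal), with the genes set slightly apart sideways. In hif-1, egl-9 hif-1 and N2 the points of tdo-2 and kynu-1 stand above the others, while in egl-9 kynu-1 at 17.5 TPM lies beside haao-1 at 19.9 TPM, and nkat-3 lies at 0.0328 TPM in vhl-1 and 0.0399 TPM in egl-9;vhl-1.

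The aminotransferase gene nkat-1 was too rare for the test across all genes. Found on chromosome X at 14137810 to 14140140 on the minus strand, it had 96 counts over the 21 libraries, and 3 libraries had 0. The libraries held 5, 0 and 4 counts in egl-9, 0, 3 and 7 in rhy-1, 2, 6 and 2 in vhl-1, 3, 2 and 0 in egl-9;vhl-1, 6, 4 and 9 in hif-1 and 5, 7 and 7 in egl-9 hif-1, against 11, 8 and 5 in N2. Scaled to library size, the summed counts of egl-9;vhl-1 were 4.82-fold lower than those of N2, with an exact 95% counting interval of 1.8 to 16.2, and those of egl-9 were 2.47-fold lower (1.11 to 6.04). The intervals of rhy-1 (2.68-fold, 1.24 to 6.29) and vhl-1 (2.43-fold, 1.12 to 5.68) lay above 1, and those of hif-1 (1.24-fold, 0.652 to 2.4) and egl-9 hif-1 (1.3-fold, 0.684 to 2.51) held 1. These intervals cover counting error only. With no filter, edgeR called none of these 6 changes, and the lowest adjusted p was 0.0733, in egl-9;vhl-1, so at this depth no change of nkat-1 could be shown beyond the spread between libraries.

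The aminotransferase gene nkat-3 had almost no counts wherever vhl-1(ok161) was present. It lies on chromosome X at 15441731 to 15443630 on the plus strand. Its counts were 1, 0 and 0 in the vhl-1 libraries and 1, 0 and 0 in egl-9;vhl-1, against 242, 254 and 225 in N2. Scaled to library size, that is 729-fold lower in vhl-1 (exact 95% counting interval 130 to 28822) and 724-fold lower in egl-9;vhl-1 (129 to 28624). These values chose the gene and are given without a test. Without vhl-1 replicate 1, which held the single count, the vhl-1 level was at least 160-fold lower, and without egl-9;vhl-1 replicate 1 the egl-9;vhl-1 level was at least 175-fold lower, both computed against 3 counts over the group.

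In the 4 mutant genotypes with an intact vhl-1 gene, nkat-3 was called in none against N2. It was chosen for its loss with vhl-1(ok161) and not for these comparisons, but these genotypes and N2 may have served as the reference of that loss. Its level was 20.2, 23.7 and 23.3 CPM in egl-9, 21.6, 20.5 and 25.7 CPM in rhy-1, 32.3, 30.6 and 33.4 CPM in hif-1 and 24, 26.7 and 22.4 CPM in egl-9 hif-1, against 25, 29.9 and 27.1 CPM in N2. The egl-9 libraries lay below N2 and the hif-1 libraries above it, while rhy-1 and egl-9 hif-1 overlapped N2. The changes were -0.29 ± 0.14 in egl-9 (edgeR adjusted p = 0.143), -0.28 ± 0.14 in rhy-1 (adjusted p = 0.146), 0.23 ± 0.14 in hif-1 (adjusted p = 0.258) and -0.17 ± 0.14 in egl-9 hif-1 (adjusted p = 0.543).

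Both vhl-1 genotypes carry 1 allele, ok161, and the strain background that came with it cannot be told apart from the loss of vhl-1 in this design. The neighbourhood of nkat-3 was therefore read off as the 5 nearest tested genes on each side, without regard to their own values. The place itself was set by nkat-3, which was chosen for its loss with this same allele. The gene vhl-1 itself lies on the same chromosome at 11307356 to 11308518, 4.13 Mb from nkat-3. The closest tested gene downstream, R03A10.5, starts 5.0 kb from the nkat-3 start, at 15446722 to 15450391. It was at 1.79 ± 0.263 CPM in vhl-1, 1.54 ± 0.465 CPM in egl-9;vhl-1 and 8.92 ± 1.31 CPM in egl-9, against 6.38 ± 1.55 CPM in N2 (mean ± SD, n = 3). It fell by 1.83 ± 0.26 in vhl-1 on the log2 scale (edgeR adjusted p = 6.72e-05) and by 2.07 ± 0.26 in egl-9;vhl-1 (adjusted p = 7.46e-06), and its change of 0.48 ± 0.22 in egl-9 was not called (adjusted p = 0.117).

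The closest tested gene upstream, mocs-1, whose product is a molybdenum cofactor synthesis enzyme, changed by -0.54 ± 0.21 in vhl-1 (edgeR adjusted p = 0.101) and fell by 0.74 ± 0.21 in egl-9;vhl-1 (adjusted p = 0.0114). Of the other 8 neighbours, none was called in vhl-1. In egl-9;vhl-1 the sulfite oxidase gene suox-1 fell by 0.49 ± 0.16 (adjusted p = 0.0198) and pqn-36 rose by 1.51 ± 0.46 (adjusted p = 0.016), and both were also called in egl-9, at -0.89 ± 0.16 (adjusted p = 3.21e-04) and 2.98 ± 0.45 (adjusted p = 5.02e-05). The neuropeptide gene flp-32 and the genes blos-8, sprr-1, exc-1 and gob-1 were called in none of vhl-1, egl-9;vhl-1 and egl-9. The rare gene F39D8.3 was called in egl-9 alone of these, at 2.73 ± 0.98 (adjusted p = 0.047), with 12 counts over the vhl-1 libraries and 8 over egl-9;vhl-1.

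**Figure D4:**
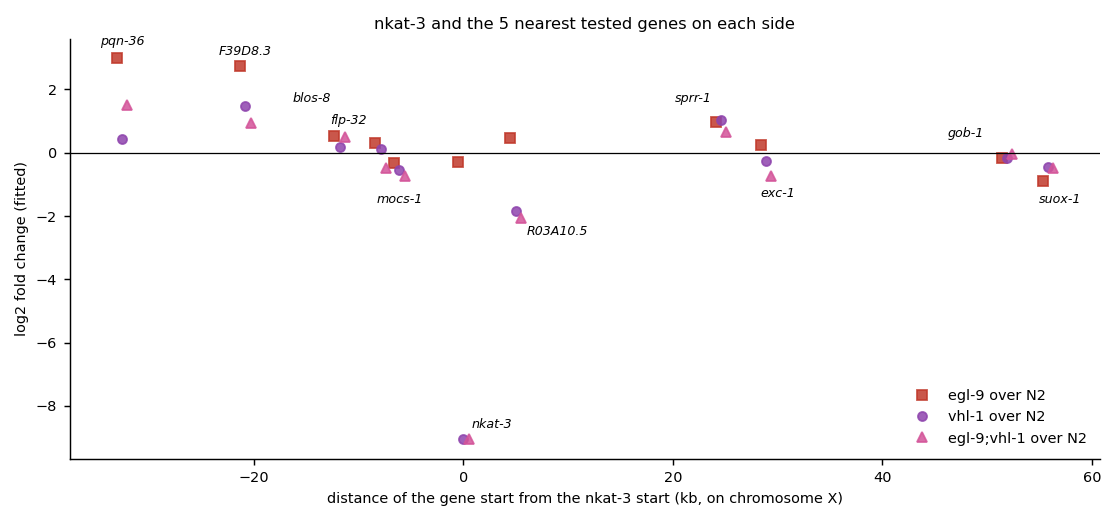
Fitted log2 fold change over N2 (vertical axis) of nkat-3 and the 5 nearest tested genes on each side, by distance of the gene start from the nkat-3 start in kb (horizontal axis), in egl-9 (squares), vhl-1 (circles) and egl-9;vhl-1 (triangles), with the symbols set slightly apart. The fitted nkat-3 points in vhl-1 and egl-9;vhl-1 rest on 1 count each and give no size. R03A10.5, at 5.0 kb, is low in vhl-1 and egl-9;vhl-1 at -1.83 and -2.07 and not in egl-9.

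The tested genes whose log2 CPM followed nkat-3 most closely over the 21 libraries were F08G12.1 (Pearson r = 0.99), vhl-1 (0.98), T12A7.2 (0.98), R03A10.5 (0.95) and F58B4.5 (0.85). These were picked for their likeness, so their values are a description. F08G12.1 lies on chromosome X at 11302015 to 11305873, beside vhl-1, and had a mean of 0.668 CPM in vhl-1 and 0.424 CPM in egl-9;vhl-1, against 11.6 CPM in N2. T12A7.2 lies on chromosome IV and had 1.19 CPM in vhl-1 and 1.07 CPM in egl-9;vhl-1, against 6.3 CPM in N2. F58B4.5 lies on chromosome V and had 10.8 CPM in vhl-1 and 13.6 CPM in egl-9;vhl-1, against 17.2 CPM in N2. The 21 points are shared by genotype, and the pattern is one of 6 libraries with the allele against 15 without it.

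Comparisons between mutants showed how the changes combine. Between egl-9 hif-1 and egl-9, 2 of 6 tested members were called, both higher, the kynu-1 and tdo-2 changes given above, where 21.4% of all genes were called and 8.18% were higher. The other 4 were not called, and kmo-1 changed by -0.46 ± 0.17 (edgeR adjusted p = 0.0676). The interaction of egl-9 and hif-1 is the change in egl-9 hif-1 minus the sum of the changes in egl-9 and in hif-1, on the log2 scale. It was called for 2 of 6 members, where 22.1% of all genes were called: 1.40 ± 0.16 for kynu-1 (adjusted p = 2.98e-06) and -1.01 ± 0.24 for kmo-1 (adjusted p = 0.00564). For tdo-2 it was 0.53 ± 0.22 (adjusted p = 0.0954), and 0.77 (adjusted p = 0.0114) without egl-9 replicate 3.

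Between egl-9;vhl-1 and vhl-1, 3 of 5 tested members were called, all lower, where 17.2% of all genes were called and 10% were lower. These were kynu-1 at -0.61 ± 0.11 (edgeR adjusted p = 0.00101), tdo-2 at -0.67 ± 0.17 (adjusted p = 0.00854) and kmo-1 at -0.68 ± 0.17 (adjusted p = 0.00751), each with no overlap between the 3 libraries of either genotype. Between egl-9;vhl-1 and egl-9, 0 of 5 members were called by edgeR, 2 had an unadjusted p below 0.05 and DESeq2 called 0, where 8.47% of all genes were called. The level of kynu-1 was 23.4 ± 2.63 CPM in egl-9;vhl-1, against 22.3 ± 1.13 CPM in egl-9, and the change was 0.07 ± 0.12 (adjusted p = 0.798). For tdo-2 the change was -0.45 ± 0.17 (adjusted p = 0.112), and -0.62 (adjusted p = 0.0127) without egl-9 replicate 2. The interaction of egl-9 and vhl-1 was called for 2 of 5 members, against 8.79% of all genes: 1.13 ± 0.16 for kynu-1 (adjusted p = 1.52e-04) and -1.11 ± 0.24 for kmo-1 (adjusted p = 0.00629). The double mutant was thus less low in kynu-1, and less high in kmo-1, than the sum of both single changes.

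Between rhy-1 and egl-9, 0 of 6 members were called by edgeR, 2 had an unadjusted p below 0.05 and DESeq2 called 0, where 7.48% of all genes were called. The rhy-1 libraries of kynu-1, at 27.6 to 31.4 CPM, lay above the egl-9 libraries, at 21 to 23.3 CPM, with a change of 0.37 ± 0.12 (edgeR adjusted p = 0.0571). That p was 0.0261 without vhl-1 replicate 1, 0.0458 without vhl-1 replicate 3 and 0.0419 with a minimum count of 50. For afmd-1 the change was 0.63 ± 0.22 (adjusted p = 0.0897), and 0.98 (adjusted p = 0.00779) without egl-9 replicate 3.

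Between egl-9 hif-1 and hif-1, 4 of 6 members were called lower, where 30.5% of all genes were called and 17.7% were lower. They were kynu-1 at -0.34 ± 0.11 (edgeR adjusted p = 0.0229), kmo-1 at -0.58 ± 0.17 (adjusted p = 0.0157), nkat-3 at -0.40 ± 0.14 (adjusted p = 0.0359) and haao-1 at -0.39 ± 0.14 (adjusted p = 0.0403), beside a median of -0.08 over all genes. The tdo-2 change of -0.38 ± 0.15 was not called (adjusted p = 0.069), and had an adjusted p of 0.0348 without egl-9 replicate 2, 0.0325 without egl-9 replicate 3, 0.0462 at a minimum count of 50 and 0.0432 with only the compared genotypes fitted. These changes are small, and the number of members called fell to 0 without hif-1 replicate 3 and to 0 without egl-9 hif-1 replicate 3. It was 1 without hif-1 replicate 2, and 2 without hif-1 replicate 1 or without egl-9 hif-1 replicate 2. Each of the 4 calls was lost without 1 library or another, with adjusted p up to 0.127 for kynu-1, 0.0976 for kmo-1, 0.154 for nkat-3 and 0.199 for haao-1. With all libraries kept, they were lost with adjusted p up to 0.0622 for kynu-1 (no filter), 0.0553 for kmo-1 (only the compared genotypes fitted), 0.081 for nkat-3 (no filter) and 0.102 for haao-1 (only the compared genotypes fitted). The summed level of 7 intestinal markers was 782 to 917 CPM in egl-9 hif-1, against 1245 to 1368 CPM in hif-1, with 5 of 7 called lower. The 7 hypodermal markers summed to 867 to 1100 CPM in egl-9 hif-1, against 1689 to 2204 CPM in hif-1. Nearly all of that sum was the adult collagen gene col-19, at a mean of 865 CPM in egl-9 hif-1 and 1878 CPM in hif-1, while 2 of 6 tested hypodermal markers were called lower and their median change was -0.03. Of the sperm markers 6 of 7 were called lower, and of the germline and oocyte markers 7 of 9 were called higher. Their part in these results was not tested.

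Over the 21 libraries the log2 CPM of kynu-1 and tdo-2 went together (Pearson r = 0.92), while kynu-1 with haao-1 had r = 0.34 and with kmo-1 -0.17. The libraries share genotypes, so these values describe the pattern above. The genes most like kynu-1 were the cytochrome P450 gene cyp-25A1 (0.97), the methylcrotonyl-CoA carboxylase gene mccc-1 (0.97) and F35F10.5 (0.96). The gene cyp-25A1 had a mean of 4.19 CPM in egl-9, 3.87 CPM in egl-9;vhl-1 and 44.5 CPM in hif-1, against 31.9 CPM in N2. F35F10.5 had 1 count over the egl-9 libraries and 1 over egl-9;vhl-1, against 211 in N2. Those most like tdo-2 were ZK899.2 (0.94), C50B6.7 (0.94) and the basement membrane gene nid-1 (0.93), and nid-1 had a mean of 88.3 CPM in egl-9 and 79.4 CPM in egl-9;vhl-1, against 137 CPM in N2. No gene reached r above 0.84 with afmd-1, 0.82 with kmo-1 or 0.83 with haao-1.

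The levels of stage and tissue markers also differed from N2 in the genotypes where kynu-1 and tdo-2 fell. All 12 L4 molt markers had counts in every genotype, and their summed level was 203 to 565 CPM in egl-9, 224 to 529 CPM in rhy-1, 91.3 to 181 CPM in vhl-1 and 95.8 to 242 CPM in egl-9;vhl-1, against 71 to 80.8 CPM in N2. The median change of the 12 markers was 2.17 in egl-9, 2.90 in rhy-1, 0.06 in vhl-1 and 1.29 in egl-9;vhl-1. Called higher were 6 in egl-9 and 7 in rhy-1, where 14.8% and 16.7% of all genes were. In vhl-1 and egl-9;vhl-1 they were 1 and 2, beside 6.54% and 16.5% of all genes. The 1 called in vhl-1 was mlt-10, at a mean of 42.8 CPM, against 2.56 CPM in N2. By summed level the highest libraries were egl-9 replicate 1 and rhy-1 replicate 1. With both left out, kynu-1 changed by -1.74 in egl-9 (edgeR adjusted p = 5.05e-08) and by -1.42 in rhy-1 (adjusted p = 7.26e-07), and tdo-2 by -0.87 in egl-9 (adjusted p = 0.00244) and by -0.80 in rhy-1 (adjusted p = 0.0045). In the libraries that remained, the molt markers still summed to 203 and 209 CPM in egl-9 and to 224 and 242 CPM in rhy-1, above every N2 library. The 6 yolk protein genes of the adult summed to 55155 to 88452 CPM in egl-9, 85086 to 101580 CPM in rhy-1, 78794 to 104939 CPM in vhl-1 and 94246 to 100330 CPM in egl-9;vhl-1, against 104478 to 138868 CPM in N2.

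The 7 intestinal markers summed to 743 to 890 CPM in egl-9, 791 to 934 CPM in rhy-1, 861 to 1028 CPM in vhl-1 and 748 to 766 CPM in egl-9;vhl-1, against 953 to 1243 CPM in N2. The vhl-1 sums overlapped N2, while those of the other 3 genotypes lay below N2. The largest part was act-5, at a mean of 595 CPM in N2. The median change of the 7 markers was -0.13 in egl-9, -0.25 in rhy-1, -0.04 in vhl-1 and -0.50 in egl-9;vhl-1. Called higher and lower were 1 and 3 in egl-9 (14.8% and 11% of all genes) and 2 and 2 in rhy-1 (16.7% and 12.8%). In vhl-1 they were 0 and 0 (6.54% and 5.95%), and in egl-9;vhl-1 0 and 4 (16.5% and 18.1%). Hypodermal markers summed to 1352 to 1703 CPM in egl-9, 1734 to 1854 CPM in rhy-1, 2055 to 2124 CPM in vhl-1 and 1745 to 1772 CPM in egl-9;vhl-1, against 1649 to 1985 CPM in N2, where 6 of 7 had a count and rol-6 was at 0. The rhy-1 and egl-9;vhl-1 libraries lay within the N2 range and the vhl-1 libraries above it, and the median change of the 6 tested markers was -0.16 in egl-9, 0.02 in rhy-1, 0.15 in vhl-1 and -0.01 in egl-9;vhl-1. The 7 sperm markers summed to 198 to 250 CPM in egl-9;vhl-1, against 381 to 610 CPM in N2, while the egl-9, rhy-1 and vhl-1 libraries overlapped N2. In egl-9;vhl-1 all 7 were called lower, with a median change of -1.14. The 9 germline and oocyte markers summed to 6149 to 7092 CPM in egl-9, 6401 to 6583 CPM in rhy-1, 6873 to 7350 CPM in vhl-1 and 7540 to 8082 CPM in egl-9;vhl-1, against 5425 to 6400 CPM in N2, and in egl-9;vhl-1 6 of 9 were called higher and 1 lower. The part of stage and tissue in the changes of kynu-1 and tdo-2 was not tested.

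Related enzymes outside the 7 genes were read from lists, also drawn up with earlier results known. Their counts stand beside 14.8% of all genes called higher and 11% lower in egl-9, 16.7% and 12.8% in rhy-1, 6.54% and 5.95% in vhl-1, and 16.5% and 18.1% in egl-9;vhl-1. Of 6 tested enzymes of the kynurenine type, 0 were called higher and 1 lower in egl-9, 0 and 3 in rhy-1, 1 and 1 in vhl-1, and 2 and 3 in egl-9;vhl-1, and the list median was -0.10 in egl-9, -0.18 in rhy-1, -0.20 in vhl-1 and -0.32 in egl-9;vhl-1. The paralogue of the arylformamidase gene, afmd-2, fell by 1.13 ± 0.30 in rhy-1 (edgeR adjusted p = 0.00699) and by 1.22 ± 0.31 in egl-9;vhl-1 (adjusted p = 0.00434). It was rare, at a mean of 1.46 CPM in rhy-1 and 1.41 CPM in egl-9;vhl-1, against 3.21 CPM in N2. Its changes in egl-9 (-0.38 ± 0.29) and vhl-1 (-0.78 ± 0.29) were not called. The second monooxygenase gene, kmo-2, fell by 0.87 ± 0.31 in egl-9;vhl-1 (adjusted p = 0.0375) and was not called in vhl-1 (-0.04 ± 0.29), where kmo-1 rose. The mean of kmo-2 was 2.53 CPM in egl-9;vhl-1, against 4.66 CPM in N2. The aspartate aminotransferase gene got-2.1 fell by 0.29 ± 0.07 in egl-9 (adjusted p = 0.00749) and by 0.36 ± 0.07 in rhy-1 (adjusted p = 0.00112). It also fell by 0.26 ± 0.07 in vhl-1 (adjusted p = 0.0307) and by 0.33 ± 0.07 in egl-9;vhl-1 (adjusted p = 0.00191). In contrast, got-2.2 rose by 0.38 ± 0.09 in vhl-1 (adjusted p = 0.0116) and by 0.37 ± 0.09 in egl-9;vhl-1 (adjusted p = 0.00468), and was not called in egl-9 or rhy-1.

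Of 12 tested genes of NAD synthesis and use, 2 were called higher and 1 lower in egl-9, 1 and 0 in rhy-1, 1 and 0 in vhl-1, and 4 and 1 in egl-9;vhl-1, and the list medians lay between 0.06 and 0.09. Over all genes 25.8% were called in egl-9, 29.5% in rhy-1, 12.5% in vhl-1 and 34.6% in egl-9;vhl-1, so that the egl-9 and vhl-1 counts are near the background and that of rhy-1 is below it. In worms UMPS-1 makes the step from quinolinic acid to NAD that another enzyme makes in mammals, and umps-1 rose by 0.49 ± 0.14 in egl-9 (edgeR adjusted p = 0.013) and was not called in rhy-1, vhl-1 or egl-9;vhl-1. The nicotinamidase gene pnc-1, of the salvage route, fell by 0.55 ± 0.12 in egl-9 (adjusted p = 0.0017) and by 0.31 ± 0.12 in egl-9;vhl-1 (adjusted p = 0.0482). It was not called in rhy-1 or vhl-1. Against egl-9, pnc-1 rose by 0.35 ± 0.12 in egl-9 hif-1 (adjusted p = 0.0377). The gene acsd-1, for the decarboxylase that turns the product of HAAO-1 away from NAD, rose by 1.19 ± 0.18 in vhl-1 (adjusted p = 1.72e-04) and by 0.77 ± 0.18 in hif-1 (adjusted p = 0.0106). Its interaction of egl-9 and vhl-1 was -1.37 ± 0.27 (adjusted p = 0.00276), and in egl-9;vhl-1 its change over N2 was -0.10 ± 0.19.

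Of 7 tested quinone synthesis genes, coq-2 was the one called higher in each HIF-1-raising genotype. COQ-2 joins the ring precursor, which for rhodoquinone comes from the kynurenine pathway, to its tail. It rose by 0.57 ± 0.11 in egl-9 (edgeR adjusted p = 3.96e-04), 0.34 ± 0.10 in rhy-1 (adjusted p = 0.019), 0.37 ± 0.11 in vhl-1 (adjusted p = 0.0284) and 0.65 ± 0.10 in egl-9;vhl-1 (adjusted p = 9.92e-05). Against egl-9, it fell by 0.67 ± 0.11 in egl-9 hif-1 (adjusted p = 8.85e-05). The only other quinone gene called in these 4 genotypes was coq-5, which fell by 0.44 ± 0.11 in rhy-1 (adjusted p = 0.00366), and the list medians lay between -0.24 and 0.01.

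Of 10 tested genes of other aromatic amino acid metabolism, 1 was called higher and 6 lower in egl-9, 1 and 5 in rhy-1, 3 and 3 in vhl-1 and 3 and 6 in egl-9;vhl-1, and the list median was -0.49 in egl-9, -0.48 in rhy-1, -0.30 in vhl-1 and -0.51 in egl-9;vhl-1. The phenylalanine hydroxylase gene pah-1 rose by 1.04 ± 0.11 in egl-9 (edgeR adjusted p = 1.04e-06). It was also called higher in rhy-1 (0.45 ± 0.11, adjusted p = 0.00466), vhl-1 (0.56 ± 0.11, adjusted p = 0.00223) and egl-9;vhl-1 (0.96 ± 0.11, adjusted p = 2.33e-06). In hif-1 it rose as well, by 0.60 ± 0.11 (adjusted p = 0.00187). The GTP cyclohydrolase gene cat-4, which serves the pterin cofactor of the aromatic amino acid hydroxylases, fell by 2.05 ± 0.13 in egl-9 (adjusted p = 9.18e-10) and rose by 1.08 ± 0.12 in vhl-1 (adjusted p = 3.70e-06), with an interaction of egl-9 and vhl-1 of -1.23 ± 0.19 (adjusted p = 3.15e-04). It also fell in hif-1, by 0.58 ± 0.12 (adjusted p = 0.00477), and in egl-9 hif-1, by 1.84 ± 0.13 (adjusted p = 4.07e-08), and its change in egl-9 hif-1 against egl-9 was 0.21 ± 0.14 (adjusted p = 0.355). The aromatic amino acid decarboxylase gene bas-1 fell by 1.02 ± 0.15 in egl-9 (adjusted p = 5.04e-05), and gst-42, of tyrosine breakdown, by 1.03 ± 0.14 (adjusted p = 1.25e-05).

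**Figure D5:**
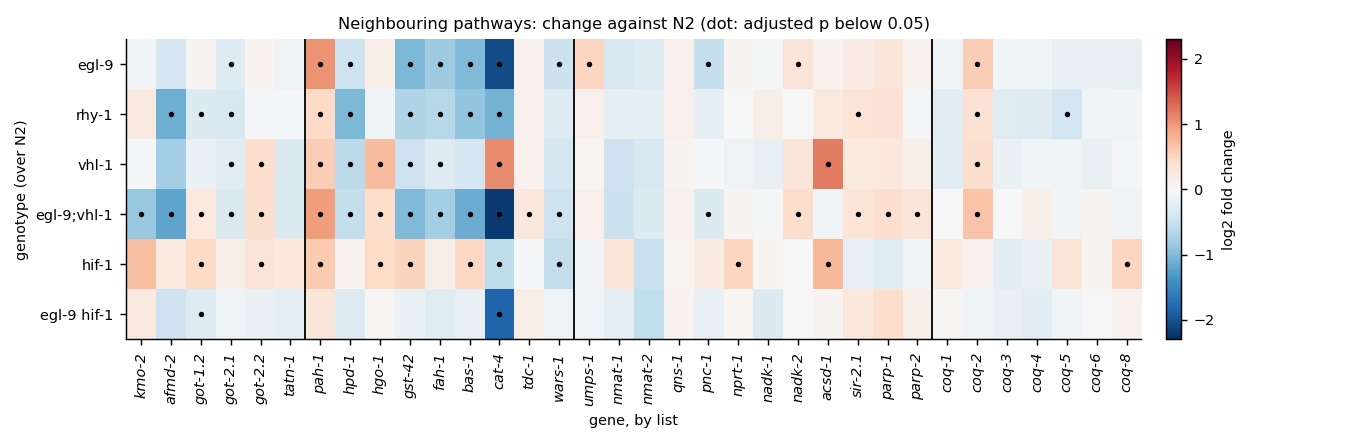
Log2 fold change over N2 (colour, red higher and blue lower) of the genes of 4 lists (horizontal axis, lists divided by lines: other kynurenine-type enzymes, other aromatic amino acid metabolism, NAD synthesis and salvage, quinone synthesis) in 6 mutant genotypes (vertical axis), with a dot for an edgeR adjusted p below 0.05. The gene tatn-1, in the first 2 lists, is drawn once. The row of egl-9 shows cat-4 at -2.05 and pah-1 at 1.04, and coq-2 has a dot in the top 4 rows.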

How the data were processed

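The authors deposited, per the file headers, kallisto's estimated counts and the scaled abundances (TPM) of 32905 transcripts in each of 21 libraries. Per the submitters' processing notes, bcl2fastq 1.8.4 and kallisto were used. The version of kallisto, the genome build and the transcript set were not given in the sources here. Whole numbers, within 1e-06, made up 66.6% of the deposited estimated counts. These counts were summed per gene and rounded to whole numbers, and the deposited TPM values were summed per gene for levels and ratios and entered no test. Transcripts were matched to Ensembl 115 (WBcel235), 28369 by transcript name and 4229 by sequence name. The other 307, with 0.102 to 0.127% of the counts, were kept under their own names. No 2 libraries were identical.

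Genes were tested with edgeR 4.0.16 (R 4.3.3; glmQLFit and glmQLFTest) in 1 fit of all libraries with genotype as the only term, TMM scaling and a minimum count of 10, which left 13043 genes and 14 residual degrees of freedom (biological coefficient of variation 0.15). Benjamini-Hochberg adjustment ran within each of 11 pairwise comparisons and 2 interactions, and many comparisons share libraries. Standard errors were taken as the size of the log2 change over the root of its F statistic. The script was tested on simulated data. Ratios of few counts have exact 95% binomial intervals for counting error.

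The members and lists were chosen with earlier results of these data known. Named genes were the 7 members, up to 4 called genes per list and comparison by size of change, the 5 tested genes on each side of nkat-3, and the genes most correlated in log2 CPM (prior count 2) with nkat-3 (5) or another tested member (3). From the lists, only a selection of these is named. Of 119 list entries 2, nkat-2 and coq-7, matched no name. The deviations of same-numbered libraries from their genotype means correlated at -0.29 to 0.253. The median was 0.0141, against -0.0172 for different numbers, which leaves a weak pairing open. The labels do not tie replicate numbers to a shared culture or batch, so they were not used as pairs in the main fit. Alternatives were another size factor (RLE), no filter, a minimum count of 50, DESeq2 1.42.0, fits of the compared genotypes alone, a replicate block and each library left out. Leaving out egl-9 replicate 1 and rhy-1 replicate 1 together was chosen after seeing the data.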

Additional observations from a re-analysis of the deposited data

Results flagged for a closer look

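Both 2-by-2 designs held members whose change in 1 background differed from that in the other by a test of the difference itself. For kynu-1 the change on losing egl-9 was smaller where hif-1 was also mutated, with an interaction of 1.40 (edgeR adjusted p = 2.98e-06), and smaller where vhl-1 was also mutated, with an interaction of 1.13 (adjusted p = 1.52e-04). For kmo-1 the interaction was -1.01 with hif-1 (adjusted p = 0.00564) and -1.11 with vhl-1 (adjusted p = 0.00629): its change on losing egl-9 was 0.42 in the wild type (not called), -0.58 in hif-1 and -0.68 in vhl-1. The kmo-1 values rest on libraries of 4.26 to 10.4 CPM.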

How the results depend on the processing

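Of 24 called changes of members, 19 were kept under all 28 alternatives, and 0 reversed. The 5 others were kmo-1 in hif-1 against N2, and kynu-1, kmo-1, nkat-3 and haao-1 in egl-9 hif-1 against hif-1. The number of members called in hif-1 against N2 (1) was 0 with no filter, with DESeq2, with only the compared genotypes fitted, and with egl-9 replicate 1 and rhy-1 replicate 1 both left out, and 0 to 2 leaving out 1 library. In egl-9 hif-1 against hif-1 (4) it was 2 with RLE size factors, 1 with no filter and 0 to 5 leaving out 1 library. In egl-9;vhl-1 against egl-9 (0) it was 0 to 1 leaving out 1 library, and in rhy-1 against egl-9 (0) it was 1 at a minimum count of 50 and 0 to 1 leaving out 1 library. The fold by which nkat-3 was lower ran between 160 and 763 in vhl-1 and between 175 and 758 in egl-9;vhl-1 leaving out 1 library, where 160 and 175 are bounds at 3 counts. The replicate block changed none of 73 member calls, and 11 of 21 libraries correlated best with their own number. The cause of these shifts was not tested.

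Counts of all genes called moved more. With only the compared genotypes fitted, 2199 genes were called in egl-9 (3363 in the full fit), 923 in vhl-1 (1629), 967 in hif-1 (1872) and 241 in egl-9 hif-1 (854), all against N2, and 580 between egl-9;vhl-1 and egl-9 (1105). With egl-9 replicate 1 and rhy-1 replicate 1 left out, 212 were called there and 486 between rhy-1 and egl-9 (975). Leaving out 1 library moved some counts by more than 1.5 times. In vhl-1 against N2, 1007 genes were called when vhl-1 replicate 1 was dropped, 1030 when its replicate 2 was, and 975 when N2 replicate 2 was. In hif-1 against N2, 828 were called without hif-1 replicate 3, 1104 without hif-1 replicate 2, 1090 without N2 replicate 1 and 841 without N2 replicate 2. In egl-9 hif-1 against N2, 342 were called without egl-9 hif-1 replicate 3, 366 without N2 replicate 2 and 542 without N2 replicate 3. Between egl-9;vhl-1 and egl-9, 301 were called without egl-9;vhl-1 replicate 1, 420 without egl-9;vhl-1 replicate 3, 248 without egl-9 replicate 1, 1820 without egl-9 replicate 2 and 469 without egl-9 replicate 3. Between rhy-1 and egl-9, 610 were called without rhy-1 replicate 1 and 606 without rhy-1 replicate 2, and 688 (1147) had an interaction of egl-9 and vhl-1 without vhl-1 replicate 2. Low counts limit nkat-1, afmd-1 and kmo-1 most.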
